A study of Mus musculus with 2 samples.

Results

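The Timp3 Ntrk2 cells described here were 241 of the 11355 kept cells (2.12%, exact 95% binomial interval 1.87 to 2.40%) of the mouse mandibular epithelium at embryonic day (E) 12.0. They were chosen by their raw transcript counts, which were at least 1 Timp3 molecule, at least 1 Ntrk2 molecule, no Irx1 or Irx2 molecule and at most 1 Shh molecule. Timp3 and Prss23 are used in the study as markers of the diastema, and the choice of cells follows that candidate name. The study found Timp3 also in periderm over the incisor, and Irx1 and Ntrk2 both in tooth buds and in parts of the diastema. It describes most genes of its diastema cluster as shared with neighbouring clusters. Irx1-positive cells can therefore include diastema cells, and a lack of Irx UMIs does not by itself mark the diastema. The study asked how cell populations are arranged along the mandible at the time teeth and other oral organs begin to form. Its E12.0 library came from the pooled mandibles of 6 embryos of 1 litter with the genotype K14Cre;R26mT/mG and no treatment. In these embryos a keratin 14 promoter drives Cre, which switches a reporter from membrane tdTomato to membrane GFP, and GFP-positive single cells were sorted after the epithelium had been peeled from the mesenchyme. Epithelial cells without Cre activity would have been lost in that sort. A second library of the same genotype, from unsorted mandibular arches of 8 pooled E9.5 embryos, entered no comparison, and 51 barcodes occurred in both libraries, 44 of them among the kept cells.

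In each mouse jaw quadrant, the diastema is the gap that runs from the incisor back to the molars. Its epithelium is continuous with the dental lamina, and rudimentary tooth primordia start there and regress. Timp3 encodes a matrix-bound inhibitor of metalloproteinases, and Ntrk2 encodes TrkB, the receptor for the neurotrophins BDNF and NT-4. The homeobox genes Irx1 and Irx2 mark tooth-forming epithelium at this stage, and Shh marks the signaling centers of the early tooth.

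Every value is a number of unique molecular identifiers (UMIs), each standing for 1 captured transcript molecule. Levels are given as CPM, the UMIs of a gene in all cells of a group for every 1000000 UMIs counted there, and brackets hold exact 95% Poisson intervals. The Timp3 Ntrk2 cells held 1816173 UMIs, with a median of 6763 per cell and a range of 1873 to 17396. They were compared with all 11114 other kept cells (median 6340 UMIs) and with 1617 Irx1-positive cells, those with at least 1 Irx1 UMI (median 7421 UMIs). With 1 library there is no replicate and no test could be made. Intervals therefore hold for counting error alone. Genes were counted by size instead, as those with 1.3 times the CPM of the other group (5 CPM being added to both) that had a UMI in 15% or more of cells in the higher group. A gene that reached this share in 1 group alone could be counted in 1 direction alone. This held for 67 of the 159 higher and 66 of the 208 lower genes against all other cells, and for 60 of 223 and 97 of 230 against the Irx1-positive cells. Log2 ratios in the text are of the CPM as measured, with the exact interval of the ratio of counts.

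The genes that define the cells gave the following levels, which are a description and no finding. Timp3 (ENSMUSG00000020044, chromosome 10 from 86300372 to 86349506, plus strand of GRCm38) was measured at 282 CPM (259 to 308) in the Timp3 Ntrk2 cells, 100.0 CPM in all others and 101 CPM in the Irx1-positive cells. Exactly 1 Timp3 UMI was found in 109 of the 241 cells, 2 in 69, 3 in 29, 4 in 12 and at least 5 in 22. Ntrk2 (ENSMUSG00000055254, chromosome 13 from 58806569 to 59133970, plus strand) was at 176 CPM (157 to 197), against 18 CPM and 61.2 CPM. It was carried by a single UMI in 184 of the cells (76.3%), by 2 UMIs in 40 and by 3 or more in the rest. Most members therefore lay on the threshold for Ntrk2. Just outside the choice lay 267 cells with both genes and some Irx1 or Irx2 UMI, 3 cells with both and more than 1 Shh UMI, 3031 cells with Timp3 and no Ntrk2 UMI and 291 cells with Ntrk2 and no Timp3 UMI, all of the last 2 groups without Irx UMIs. Shh was at 0 in 240 members and at 1 UMI in the other.

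Since Timp3 and Ntrk2 define the cells, the 250 bases before their start sites are shown from RefSeq promoters of GRCm38.p6, read 5′ to 3′ on the strand of the gene. The 2 promoters lie at chr10:86300162-86300411 (plus strand) and chr13:58806319-58806568 (plus strand). Capitals mark the E-box letters CANNTG, which read the same on both strands, and in Timp3 also the GC-box letters GGGCGG, found there on the other strand as CCGCCC.
Timp3: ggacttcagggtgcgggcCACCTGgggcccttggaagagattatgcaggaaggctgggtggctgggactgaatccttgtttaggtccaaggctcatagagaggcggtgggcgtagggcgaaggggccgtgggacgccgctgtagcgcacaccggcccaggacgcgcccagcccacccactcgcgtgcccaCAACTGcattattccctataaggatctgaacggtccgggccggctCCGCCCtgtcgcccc
Ntrk2: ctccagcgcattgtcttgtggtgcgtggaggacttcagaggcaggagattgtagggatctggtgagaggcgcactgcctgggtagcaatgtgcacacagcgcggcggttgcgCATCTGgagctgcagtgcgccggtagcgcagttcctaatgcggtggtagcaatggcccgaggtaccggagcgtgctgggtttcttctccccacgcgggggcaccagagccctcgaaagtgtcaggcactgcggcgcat
Timp3 holds 2 E-box matches and 1 GC-box match, and Ntrk2 holds 1 E-box match. The Timp3 window ends at 86300411, past the gene start given above (86300372). Its last bases, with the GC-box match, thus lie inside the gene as placed there. Of 32851 mouse promoters of this length, 66.2% hold CANNTG and 32.7% hold GGGCGG on either strand, so both matches are common letters. Neither CTTTGA (13.8% of promoters), a TCF/LEF type of motif, nor TAATCC (6.25%), a bicoid homeodomain type of motif, was found in either window on either strand. The promoter of Ephb1 at chr9:102354694-102354943 (minus strand) held none of the 4 motifs.

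Timp3 and Ntrk2 were found together little more often than their separate frequencies give. When all cells were reduced at random to 4100 UMIs and the 1024 shallower ones dropped, 27.5% of 10331 cells had a Timp3 UMI and 6.96% an Ntrk2 UMI. Both were present in 246 cells (2.38%), against 1.91% for independent detection, a ratio of 1.24 (1.10 to 1.41). Among the 8674 thinned cells without Irx1 or Irx2 the ratio was 1.33 (1.13 to 1.55). Ntrk2 and Irx1 shared cells 2.87 times as often (2.5 to 3.28) as independent detection gives, and Timp3 and Irx1 0.904 times (0.800 to 1.02). Ntrk2 thus had a higher ratio with Irx1, which the choice of cells leaves out, than with Timp3.

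The candidate markers that did not choose the cells were the growth factor Fgf8, the receptor tyrosine kinase Ephb1, which binds ephrins on neighbouring cells, and the secreted serine protease Prss23. All 3 met the size criteria as higher against all other cells, where 2.44% of 6504 genes tested did so. Fgf8 (ENSMUSG00000025219, chromosome 19 from 45736798 to 45742915, minus strand) was at 57.3 CPM (46.8 to 69.4) in the Timp3 Ntrk2 cells against 24.1 CPM (23 to 25.2) elsewhere in the library, a log2 ratio of 1.25 (0.95 to 1.53). Ephb1 (ENSMUSG00000032537, chromosome 9 from 101922128 to 102354693, minus strand) was at 41.3 CPM (32.5 to 51.8) against 22.1 CPM (21.1 to 23.2), a log2 ratio of 0.90 (0.55 to 1.24). Prss23 (ENSMUSG00000039405, chromosome 7 from 89507783 to 89527187, minus strand) was at 177 CPM (158 to 198) against 99.2 CPM (97 to 101), a log2 ratio of 0.84 (0.67 to 1.00). The intervals of the 2 groups were apart for all 3 genes, as for 13% of all genes tested. Fgf8 and Ephb1 reached the share of 15% in the Timp3 Ntrk2 cells alone, so they could be counted as higher only. Against the Irx1-positive cells, where 3.30% of 6758 genes were higher, Ephb1 (15.6 CPM) and Prss23 (109.9 CPM) met the criteria. Fgf8 did not, at 55.3 CPM (51.4 to 59.5). Ephb1 could be counted as higher only in this comparison too. Prss23 was named by the study from this same library, and all 3 were chosen as candidate markers with results of these data known, so they are not independent evidence. With only 3 markers outside the choice, the cells are called by their genes here.

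A UMI of Fgf8 was found in 33.6% of the Timp3 Ntrk2 cells, 11.5% of all other cells and 27.8% of the Irx1-positive cells, and after thinning in 20.5% of 229, 8.20% of 10102 and 18.8% of 1573 cells. For Prss23 the shares were 61.8%, 38.8% and 42.9%, and 47.6%, 28.7% and 29.8% after thinning. Ephb1 was found in 22.4% of the cells and in 11.8% after thinning, against 11.9% and 7.94% of all other cells. Most Timp3 Ntrk2 cells therefore had no UMI of Fgf8 or of Ephb1.

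**Figure D1:**
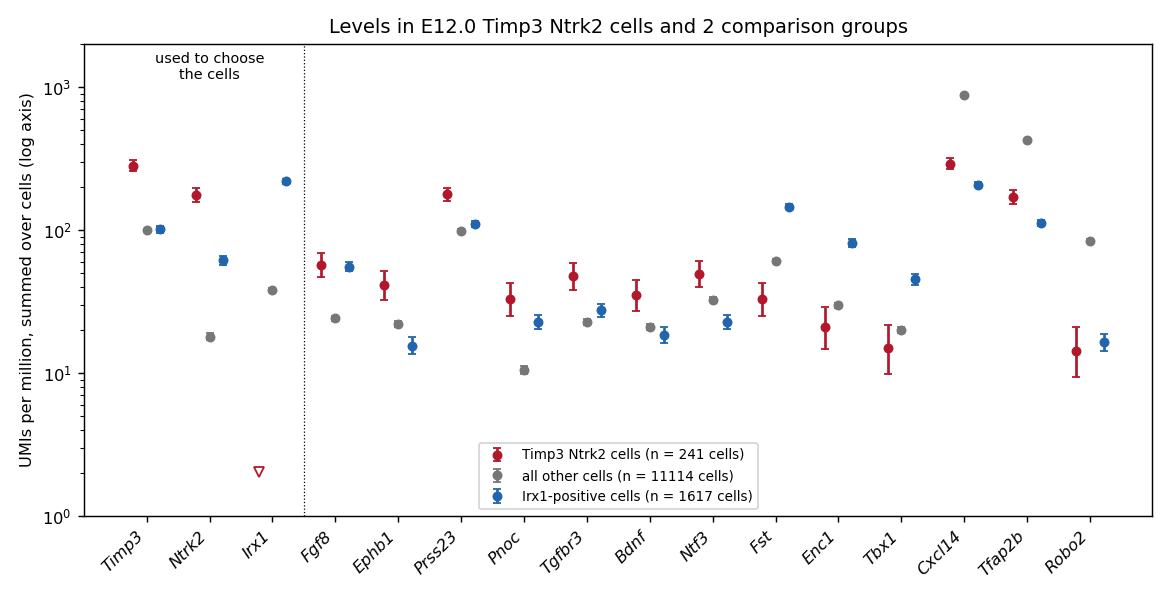
Levels of 16 genes in CPM (log axis) for the Timp3 Ntrk2 cells (red), all other kept E12.0 cells (grey) and Irx1-positive cells (blue), with exact 95% Poisson intervals as bars. The open triangle gives the upper limit of Irx1, which is 0 in the chosen cells, and genes left of the dotted line chose the cells. Ephb1 and Prss23 lie above both comparison groups, Fgf8 lies level with the Irx1-positive cells, and Cxcl14, Tfap2b and Robo2 lie below all other cells.

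Beside the genes that chose the cells, 159 genes (2.44%) were higher and 208 (3.20%) lower than in all other cells (5.64% in either direction). Outside the gene lists, the largest log2 ratio upward was that of Pnoc (nociceptin precursor, ENSMUSG00000045731, chromosome 14 from 65400673 to 65425472, minus strand), at 33 CPM (25.2 to 42.5) against 10.5 CPM (9.77 to 11.2) and 22.8 CPM (20.3 to 25.5) in the Irx1-positive cells. In the 31 cells with 2 or more UMIs of Timp3 and of Ntrk2, Pnoc was at -0.58 (log2, CPM plus 5) against the Irx1-positive cells. Pnoc was found in 22.4% of the Timp3 Ntrk2 cells and 5.98% of all others. Tgfbr3, the coreceptor betaglycan that presents TGF-beta ligands, was at 47.9 CPM (38.4 to 59.1) against 22.7 CPM and 27.4 CPM. Slc12a2, the sodium potassium chloride cotransporter, was at 837 CPM (796 to 881) and had a UMI in 93.8% of the cells, against 492 CPM and 75.2%. The homeobox gene Nkx2-3 was at 177 (158 to 197) CPM against 104 CPM. Kit, the receptor for stem cell factor, was at 47.4 (37.9 to 58.5) CPM against 27.7 CPM and 18.7 CPM. The other 10 of the leading 15 were A730017C20Rik, Ifitm1, Nuak1, G6pdx, Ppargc1b, Cdo1, Pkmyt1, Cpne5, Slc6a6 and Cyr61, with log2 ratios on the CPM plus 5 scale of 0.65 to 0.83. The differences were small, since only 2 of the 159 genes were raised 2-fold on that scale, namely Pnoc and Fgf8. Both could be counted as higher only, as could Tgfbr3, G6pdx, Ppargc1b, Pkmyt1 and Cpne5.

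Of the lower genes, 17 were lower by 2-fold or more, and 11 of these could be counted as lower only, reaching the share of 15% in the other cells alone. Robo2, Gjb2, Barx1, Gata3, Piezo2 and Rassf8 below are such genes. Robo2, a receptor for Slit guidance cues, was at 14.3 CPM (9.35 to 21) against 84.1 CPM (82.1 to 86.2), a log2 ratio of -2.55 (-3.17 to -2.0). The connexin gene Gjb2 was at 11.6 CPM (7.16 to 17.7) against 71.4 CPM (69.5 to 73.3). The chemokine gene Cxcl14 was at 291 CPM (267 to 317) against 877 CPM (870.0 to 883), and Tfap2b, an AP-2 transcription factor gene, at 171 CPM (153 to 191) against 428 CPM (423 to 433). Barx1, a homeobox gene of proximal jaw epithelium and mesenchyme, was at 22 CPM (15.7 to 30.0) against 74.4 CPM (72.5 to 76.3). Outside the lists, Gata3 (7.71 against 30.9 CPM), a zinc finger transcription factor gene, the mechanosensitive channel gene Piezo2 (19.8 against 62.4 CPM), Rassf8 (7.71 against 29.7 CPM) and the T-box gene Tbx3 (44 against 98.9 CPM) were among the lowest. The other leading lower genes outside the lists were Crabp2, Samd5, Rnase4, Slc2a3, Sema5a, Sulf2, Stk39, Alcam, Cxxc5, Pcyt1b and Triobp, with log2 ratios on the CPM plus 5 scale of -1.1 to -0.79. Of these, Slc2a3, Sema5a, Sulf2 and Alcam reached the share of 15% in both groups, and Pcyt1b was at 0.14 in the 31 cells with 2 or more UMIs of Timp3 and of Ntrk2. In the Irx1-positive cells Tbx3 was at 50.3 CPM and met the criteria in neither direction, and Piezo2, at 15.5 CPM, had too few cells with a UMI to be counted.

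Among the anterior markers, more genes were lower than higher against all other cells, and more were higher than lower against the Irx1-positive cells. Of the 32 anterior markers, genes of the epithelium in front of the teeth, 24 were detected well enough against all other cells, and 12 of them were lower, 2 higher and 10 neither (3.20% and 2.44% of all genes tested were lower and higher), with a median log2 ratio on the CPM plus 5 scale of -0.40 (0.01 over all genes tested). Of the 12, Gjb2, Lgals7, Robo2 and Unc5c reached a share of 15% in the other cells alone and could be counted as lower only, as Cntn2 could as higher only. Against the Irx1-positive cells the direction turned, with 15 of 21 higher, 2 lower and 4 neither and a median of 0.59 (-0.0049 over all genes tested), where 3.30% of all genes were higher. Of the 15, Cntn2, Rxfp1 and Wnt9b could be counted as higher only. The 15 included the ligand genes Wnt7b, at 232 CPM (211 to 256) against 95.5 CPM (90.3 to 101), and Wnt9b, at 47.4 CPM (37.9 to 58.5) against 20.9 CPM (18.5 to 23.6). They also included the basal keratin gene Krt15, at 226 CPM (204 to 249) against 93.6 CPM (88.5 to 99), and the TALE homeobox gene Meis2, at 973 CPM (929 to 1019.9) against 513 CPM (501 to 525). Wnt9b and Krt15 lay between the 2 groups, since all other cells had 73.1 and 306 CPM. In the 31 cells with 2 or more UMIs of Timp3 and of Ntrk2, 5 of the 15 were instead below the Irx1-positive cells, with log2 ratios on the CPM plus 5 scale of -2.66 for Tfap2b, -0.74 for Cxcl14, -0.72 for Lmo1, -0.51 for Rxfp1 and -0.22 for Kitl. With at most 5% mitochondrial UMIs, Lmo1 was at -0.21 and Col12a1 at -0.15. The 2 lower members were Lef1, a transcription factor of WNT signalling, at 132 against 178 CPM, and the netrin receptor gene Unc5c, at 22.6 against 45.6 CPM, which could be counted as lower only.

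Dental markers were compared in the same way. Of the 13 counted, 11 were detected well enough against the Irx1-positive cells, and 9 of these were lower, none higher and 2 neither, where 3.40% of all genes tested were lower. Of the 9, 5 (Dock5, Enc1, Slitrk6, Sp6 and Tbx1) reached a share of 15% in the Irx1-positive cells alone and could be counted as lower only. The count is thus a description and supports no direction, as is the median of -0.89 on the CPM plus 5 scale. Fst (follistatin, an activin antagonist) was at 33 CPM (25.2 to 42.5) against 146 CPM (139 to 153), a log2 ratio of -2.14 (-2.54 to -1.77). Enc1, an actin-binding protein gene, was at 20.9 CPM (14.8 to 28.7) against 81.3 CPM (76.5 to 86.3). The T-box gene Tbx1 was at 14.9 CPM (9.80 to 21.6) against 45.1 CPM (41.6 to 48.9), and Dsc3, which encodes the desmosomal desmocollin 3, at 100.2 CPM (86.2 to 116) against 248 CPM (239 to 257). The intervals of the 2 groups were apart for these 4 genes, as for 8.76% of all genes tested. The other 5 were Dock5, Flrt3, Slitrk6, Sp6 and Wasf1. Against all other cells, of which the Irx1-positive cells are a part, 2 of the 6 detected dental markers were higher, Osbpl6 (27.5 against 17.8 CPM), which could be counted as higher only, and the tropomyosin gene Tpm1 (1017 against 717 CPM), and Fst was lower, where 2.44% and 3.20% of all genes tested were. The anterior and dental lists were named by the study from this library, and the Irx1-positive cells were selected on a dental gene, so neither count is independent evidence of a direction.

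**Figure D2:**
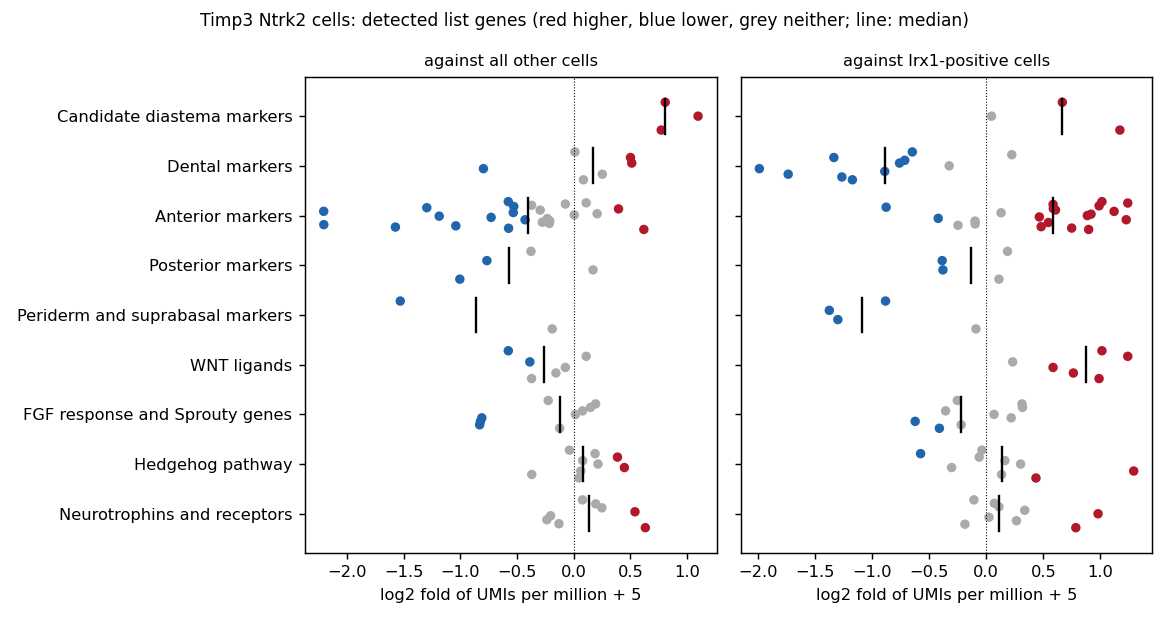
Log2 folds of CPM plus 5 for the detected genes of 9 lists, in the Timp3 Ntrk2 cells against all other kept cells (left) and against Irx1-positive cells (right). Each point is a gene, red where it was higher and blue where it was lower by the size criteria, and black lines are medians. The anterior list lies mostly below 0 on the left and above 0 on the right, and the dental list lies mostly below 0 on the right.

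In all, 223 genes (3.30%) were higher and 230 (3.40%) lower than in the Irx1-positive cells (6.70% in either direction), the list members above among them. The largest upward, both countable as higher only, were Pla2r1, a phospholipase A2 receptor gene, at 77.1 CPM (64.8 to 91) against 24 CPM (21.5 to 26.8), and the head homeobox gene Otx1, at 60.6 CPM (49.8 to 73) against 21 CPM (18.6 to 23.6). Both were near the level of all other cells (70.3 and 59.7 CPM). The other 8 of the leading 10 were Cpne5, Kit, 2700033N17Rik, Ppargc1b, S100a6, Nckap5, Fam196b and Ehbp1, at 0.91 to 1.26 on the CPM plus 5 scale, and Nckap5 and Ehbp1 alone of the 10 reached the share in both groups. The largest downward, both countable as lower only, were Jakmip2, at 4.40 CPM (1.90 to 8.68) against 39.6 CPM (36.3 to 43.1), and the growth factor gene Tgfb2, at 24.2 CPM (17.6 to 32.5) against 119.9 CPM (114 to 126). Next came 3632451O06Rik, Atxn1, Dlk1, Nfix, Fam188b, Alcam, Emp3 and Gpm6b, at -1.76 to -1.08, of which Alcam alone reached the share in both groups. The adhesion molecule gene Alcam was lower than in both groups, at 40.7 CPM against 102 and 78.3 CPM.

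For the neurotrophin pathway, 8 genes beside Ntrk2 were detected well enough against all other cells, and 2 were higher and none lower, where 2.44% and 3.20% of all genes tested were. Bdnf could be counted as higher only. The pair were the ligands Bdnf, at 35.2 CPM (27.1 to 45) against 21 CPM (20.0 to 22) and 18.4 CPM (16.1 to 20.8) in the Irx1-positive cells, and Ntf3, at 49.6 CPM (39.8 to 60.9) against 32.5 CPM (31.2 to 33.8) and 22.7 CPM (20.2 to 25.4). Both were thus higher than in both groups, although Ntf3 was at -0.049 (log2, CPM plus 5) against all other cells when 2 UMIs of Timp3 and of Ntrk2 were required, which 31 cells met. BDNF is a ligand of the receptor that Ntrk2 encodes, and NT-3, the product of Ntf3, chiefly binds the receptor that Ntrk3 encodes. No UMI of Ntrk3 or the common receptor gene Ngfr was found in the Timp3 Ntrk2 cells, where the upper limit of an interval at 0 is 2.03 CPM. Of the metalloproteinases and their inhibitors, 6 beside Timp3 were detected well enough, and none met the criteria in either direction against either group. Timp2 was at 43.5 CPM against 36.8 CPM, and the membrane metalloproteinase gene Mmp14 at 63.3 against 83.8 CPM.

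Among FGF ligands and receptors, Fgf8 and Fgf9 were higher and Fgfr2 lower than in all other cells, of 4 detected (2.44% and 3.20% over all genes tested). Fgf9, an epithelial ligand, was at 88.1 CPM (75 to 103) against 57.4 CPM (55.7 to 59.1). Fgfr2, the receptor gene of the epithelium, was at 214 CPM (193 to 237) against 292 CPM (289 to 296). Of 9 detected FGF response and Sprouty genes, none was higher and 3 were lower, Egr1, Fos and Etv5, where 3.20% of all genes tested were lower. Etv5 could be counted as lower only. Etv5, an ETS factor gene induced by FGF, was at 18.2 CPM (12.5 to 25.5) against 36 CPM (34.6 to 37.4). Egr1 and Fos belong also to the immediate-early genes, of which 4 of 10 were lower, Atf3 being one that could be counted as lower only. The feedback inhibitors Spry1 (41.3 against 35.5 CPM) and Spry2 (29.2 against 35 CPM) met the criteria in neither comparison.

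Of 9 detected Hedgehog genes beside Shh, the response genes Gli1 and Ptch1 were higher than in all other cells and none was lower (2.44% and 3.20% over all genes tested). Gli1 was at 42.9 CPM (33.9 to 53.6) against 30.2 CPM (29 to 31.4), and Ptch1 at 152 CPM (135 to 171) against 115 CPM (113 to 118). Against the Irx1-positive cells the coreceptor genes Gas1 and Boc were higher, Boc being one that could be counted as higher only, with Gas1 at 111 CPM (96.4 to 128) against 42.5 CPM (39 to 46.1). After thinning, with the cells chosen anew, Boc was instead below the Irx1-positive cells. Among WNT ligands, 5 of 6 were higher than in the Irx1-positive cells, namely Wnt7b, Wnt9b, Wnt3, Wnt4 and Wnt5a, where 3.30% of all genes tested were higher, and 2 of 6 (Wnt9b and Wnt6) were lower than in all other cells, where 3.20% were. In the first of these comparisons Wnt9b could be counted as higher only. Of 11 WNT response genes and antagonists, 1 was higher than in the Irx1-positive cells (Sostdc1, at 249 against 181 CPM) and 3 were lower (Axin2, Rnf43 and Lef1), where 3.30% and 3.40% of all genes tested were. Axin2, a WNT target, was at 34.7 against 53.3 CPM, and Rnf43 could be counted as lower only. Against all other cells none of the 11 was higher and 2 were lower, where 2.44% and 3.20% of all genes tested were. These were Rnf43, again countable as lower only, and Sostdc1, at 249 against 351 CPM. In the BMP and activin pathway, the BMP antagonist gene Nog was higher than in both groups, at 55.6 CPM (45.3 to 67.6) against 40.7 and 32.3 CPM, and 4 of 16 genes (Htra1, Fst, Acvr2a and Msx1) were lower than in all other cells (3.20% over all genes tested), Htra1 being one that could be counted as lower only. In the ectodysplasin pathway, 1 of 4 genes was lower than in both groups (3.20% and 3.40% over all genes tested), the receptor gene Tnfrsf19, at 66.1 against 133 and 100.0 CPM.

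Of 12 detected Eph and ephrin genes, Ephb1 and Epha4 were higher than in all other cells and Efna5 was lower (2.44% and 3.20% over all genes tested), Ephb1 being one that could be counted as higher only. Epha4 was at 352 CPM (325 to 380.2) against 251 CPM (248 to 255), and did not differ by size from the Irx1-positive cells (409 CPM). Of 11 detected genes of programmed cell death, none was higher and 2 were lower (3.20% over all genes tested), Bcl2l11 and Bad, both of which encode proteins that promote death. Bcl2l11 was at 31.4 CPM (23.8 to 40.7) against 48 CPM (46.4 to 49.5). Of 15 cell cycle regulators, 1 met the criteria against all other cells, a share near the 5.64% of all genes tested. This was the inhibitor gene Cdkn1c, at 219 CPM (198 to 241) against 415 CPM (411 to 420.1). Mki67 was at 542 against 462 CPM. Against the Irx1-positive cells, 2 of 16 regulators were higher (Mycn and Ccnd3) and 3 lower (Cdkn1a, Ccnd1 and Myc). Over all genes tested there, 3.30% were higher and 3.40% lower. Myc could be counted as lower only. It was instead above the Irx1-positive cells when 2 UMIs of Timp3 and of Ntrk2 were required, and in Xist-positive cells. Phase calls gave G1 in 26.1% of the Timp3 Ntrk2 cells, 39.9% of all other cells and 25.8% of the Irx1-positive cells, at median depths of 6763, 6340 and 7421 UMIs, and the part of depth in these calls was not tested. Of 19 basement membrane and adhesion genes, 1 was higher and 1 (Lama3) lower than in all other cells, also near the shares over all genes tested. The higher one was the integrin ligand gene Npnt (nephronectin), at 529 CPM (496 to 563) against 368 and 302 CPM. Of 10 detected medial and lateral markers, Fgf8, Fgf9, Pitx1, Dlx1 and Dlx2 were higher and Barx1 and Msx1 lower than in all other cells. Over all genes tested, 2.44% were higher and 3.20% lower. Fgf8 and Barx1 were each countable in 1 direction alone. The list mixes medial and lateral genes, so its counts give no position between midline and side of the jaw. Barx1 also led a cluster with Dmrt2, which the study uses as a posterior marker. Dlx1 was at -0.073 (log2, CPM plus 5) in the 31 cells with 2 or more UMIs of Timp3 and of Ntrk2. Pitx1, a homeobox gene of the oral epithelium, was at 475 CPM (443 to 507) against 299 CPM (295 to 303).

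The cells carried the markers of the sorted tissue. Epcam was at 333 CPM against 429 CPM in all other cells, Krt14 at 744 against 678 CPM and Trp63 at 242 against 253 CPM. Of 13 epithelial layer genes none was higher and 3 were lower than in all other cells (3.20% over all genes tested), Krt8, Cldn7 and Cdh1, of which Krt8 and Cldn7 could be counted as lower only. Cdh1, which encodes E-cadherin, was at 73.8 CPM (61.8 to 87.4) against 105 CPM (103 to 108). Krt8, a keratin gene of simple epithelium and periderm, was at 19.8 CPM (13.9 to 27.4) against 49.1 and 36.6 CPM. Of the periderm and suprabasal list, 2 of 16 genes were detected well enough against all other cells, too few to describe the list. Notch1, which reached a share of 15% in the other cells alone, was at 23.1 CPM (16.7 to 31.3) against 76.2 CPM (74.3 to 78.2). None of the 31 markers of mesenchyme, endothelium and blood, and nerve and glia reached a UMI in 15% of the cells. The 10 mesenchyme markers summed to 38 CPM (29.6 to 48.1) against 43.1 CPM (41.6 to 44.6) in all other cells, with Dcn the most abundant at 16 CPM and 5 of them at 0. The 12 endothelial and blood markers summed to 4.40 CPM (1.90 to 8.68), with 9 at 0, and the 9 neural and glial markers to 12.7 CPM (8.03 to 19), with 4 at 0. The doublet caller Scrublet marked 26 of the Timp3 Ntrk2 cells as doublets (10.8%, 7.17 to 15.4%), against 5.71% of all other cells and 9.59% of the Irx1-positive cells. Without doublets there were 215 Timp3 Ntrk2 cells, and 199 genes were higher and 267 lower than in the other cells, of which 137 and 173 were among those counted with doublets. With all cells thinned to 4100 UMIs and chosen anew, which left 162 cells, 66 of the 159 higher and 91 of the 208 lower genes were counted again.

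To see which gene of the pair each level went with, the cells without Irx1 or Irx2 and with at most 1 Shh UMI were divided by Timp3 and by Ntrk2. For several genes the Timp3 Ntrk2 cells had levels near those of cells with Ntrk2 alone. Pnoc was at 33 (25.2 to 42.5) CPM with both and 42.6 (33.8 to 53) CPM with Ntrk2 alone, but at 5.33 (4.41 to 6.39) CPM with Timp3 alone and 6.77 (5.91 to 7.72) CPM with neither. Prss23 was at 177 (158 to 198) and 178 (159.9 to 198) CPM in the Ntrk2-positive groups, and 94.5 (90.5 to 98.6) and 86.3 (83.1 to 89.5) CPM in the others. Robo2 showed the reverse, at 14.3 (9.35 to 21) and 14.2 (9.36 to 20.7) CPM with Ntrk2, and 117 (112 to 121) and 101 (97.4 to 104) CPM without. Fgf8 was highest with both genes, at 57.3 CPM (46.8 to 69.4), then with Ntrk2 alone at 41 CPM (32.4 to 51.2), with Timp3 alone at 19.7 CPM (17.9 to 21.7) and with neither at 12.6 CPM (11.4 to 13.8), and the intervals of the first pair overlapped.

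Some named genes had intervals apart between the Timp3 Ntrk2 cells and cells with Ntrk2 alone. The examples given were picked by their values, and such genes were not counted over all genes. Notch1 was at 23.1 CPM (16.7 to 31.3) against 58.4 CPM (48 to 70.3), and Dsc3 at 100.2 CPM (86.2 to 116) against 169 CPM (151 to 189). Isl1, a LIM homeobox gene of the distal jaw, was at 92.5 CPM (79 to 108) against 160.4 CPM (143 to 179.5). Tfap2b went the other way, at 171 CPM (153 to 191) against 85.2 CPM (72.6 to 99.4), as did Fgf9, at 88.1 CPM (75 to 103) against 56.3 CPM (46.1 to 68). By the same division, the 5 genes most like Timp3, those with the largest ratio between Timp3-positive and Timp3-negative cells, were Gas1, Wnt9b, Bdnf, Pid1 and Col12a1. Gas1 led with 167 CPM (162 to 173) against 95.4 CPM (92.2 to 98.7) in 3272 and 5616 cells. The 5 most like Ntrk2 were Pnoc, Zfp385c, Dsc3, Fgf8 and Ifitm1, and Pnoc led with 37.9 CPM (31.9 to 44.7) against 6.19 CPM (5.55 to 6.89) in 532 and 8356 cells. Cells with more UMIs are more often positive for any gene, and the medians were 6763, 6654, 5929 and 5888 UMIs with both, Timp3 alone, Ntrk2 alone and neither.

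**Figure D3:**
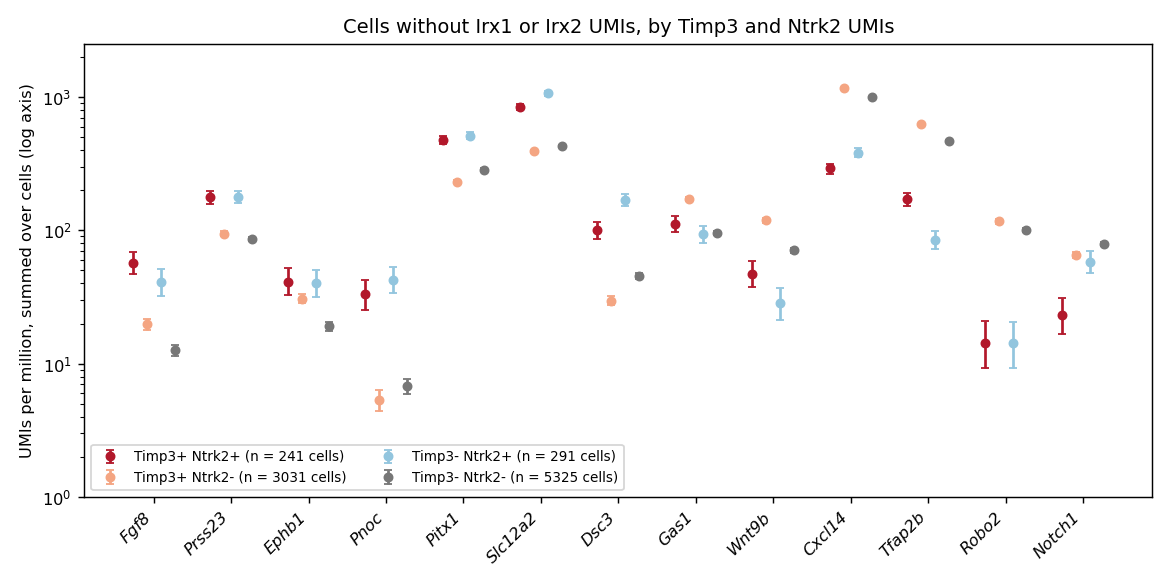
Levels of 13 genes in CPM (log axis) in cells without Irx1 or Irx2 UMIs, grouped by the presence of a Timp3 and of an Ntrk2 UMI, with exact 95% Poisson intervals. Pnoc, Prss23, Pitx1, Slc12a2 and Dsc3 are high and Cxcl14, Tfap2b and Robo2 low in both Ntrk2-positive groups (red and light blue), whether or not Timp3 was found.

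Cells with Timp3 and Ntrk2 on both sides of the limit on Irx UMIs were set side by side. Besides the 241 cells without Irx1 or Irx2, the other conditions were met by 111 cells with 1 Irx1 or Irx2 UMI, 108 with 2 or 3 and 46 with 4 or more. Fst was at 33 (25.2 to 42.5), 90.7 (73 to 112), 107 (87.8 to 129.7) and 154 (121 to 192) CPM in this order. Enc1 was at 20.9 (14.8 to 28.7), 49.4 (36.5 to 65.3), 51.6 (38.4 to 67.8) and 104 (78.2 to 136) CPM. The step from 0 to 1 Irx UMI was larger than the counting intervals for Fst, Enc1 and Dsc3. The limit on Irx UMIs chose the cells, and these genes were already known to be lower than in the Irx1-positive cells. The series is thus a description and no independent finding. Krt15 was highest without Irx and lowest with 4 or more, its middle groups overlapping, at 226 (204 to 249), 102 (82.9 to 124), 111 (91.4 to 134) and 35.4 (21 to 56) CPM. Otx1 was at 60.6 (49.8 to 73), 42.3 (30.5 to 57.2), 14.2 (7.74 to 23.8) and 11.8 (4.33 to 25.7) CPM. Prss23 was at 177 (158 to 198) CPM in the Timp3 Ntrk2 cells and 124 (95.3 to 159) CPM in the cells with most Irx. Median depth moved with the series, at 6763, 7946, 8609 and 10224.5 UMIs per cell, as did the share of called doublets, at 10.8%, 16.2%, 18.5% and 19.6%. The part of depth and doublets in the series was not tested.

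**Figure D4:**
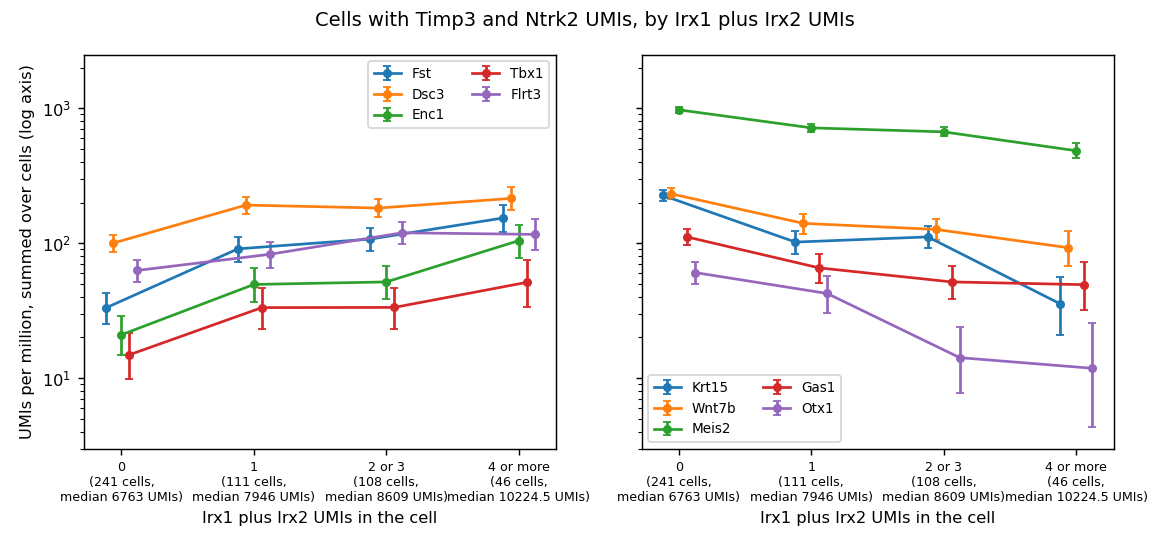
Levels in CPM (log axis) of 5 dental markers (left) and of 5 genes higher in the Timp3 Ntrk2 cells than in Irx1-positive cells (right), in cells with Timp3 and Ntrk2 UMIs by their number of Irx1 plus Irx2 UMIs, with exact 95% Poisson intervals. The Timp3 Ntrk2 cells are the leftmost group, with the lowest levels on the left and the highest on the right, and median depth under each group rises with Irx. The limit on Irx UMIs chose the cells, and the genes on the right were picked as higher than in Irx1-positive cells. The order is thus a description and no finding.

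To place the cells by genes that did not choose them, all kept cells were clustered with the choosing genes and all listed genes left out of the variable features. Of 18 clusters, 1 held 130 of the Timp3 Ntrk2 cells (53.9%) among its 1469 cells, and they were 8.85% (7.45 to 10.4%) of it. The genes leading that cluster by fold included Fgf8, Ntrk2, Timp3, Pnoc, Ephb1 and Prss23, 5 of which were left out when it was built. Timp3 was higher there than in any other cluster, at 231 CPM, while Ntrk2 at 53.3 CPM was behind a cluster of 418 cells led by Gpm6b and Irx1 (106 CPM) and level with a cluster of 548 cells led by Irx1 and Ddit4l (56.1 CPM). Fgf8, at 81.3 CPM in the cluster it led, was at 101 CPM in that led by Gpm6b and Irx1. Prss23, at 186 CPM there, was at 262 CPM in a cluster led by Shh and Tgfb2. Ephb1, at 49.6 CPM (45.4 to 54.1) there, was at 56.9 CPM (51.5 to 62.7) in one led by Pthlh, with intervals that overlapped. The cluster led by Fgf8 also held 20.8% of the Irx1-positive cells. A further 37 Timp3 Ntrk2 cells (15.4%) were in a cluster led by Pthlh, Crabp1 and Syt1, 18 in one led by Hist1h2bc and Cenpa, and 13 in that led by Gpm6b and Irx1. In all, 16 of the 18 clusters held at least 1. Without regression of cell cycle, sex and lincRNA scores the largest share in 1 cluster was 19.5%.

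The level of Ntrk2 differed widely between clusters of like depth. A UMI of it was found in 25.8% of the cells of the cluster led by Fgf8 (median 6388 UMIs), 16.7% of that led by Pthlh (median 5850 UMIs), 1.11% of that led by Wnt9b and Robo2 (median 6580.5 UMIs) and 0.884% of that led by Gjb6 and Gjb2 (median 6264 UMIs). After thinning these were 18.6%, 11.9%, 0.546% and 0.188%. Members in the last 2 of these clusters, 8 and 2 cells, came from clusters where Ntrk2 was near its lowest. Timp3 was less confined, with a UMI in 65.6%, 36.3%, 58.2% and 30.5% of the cells of the same 4 clusters.

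**Figure D5:**
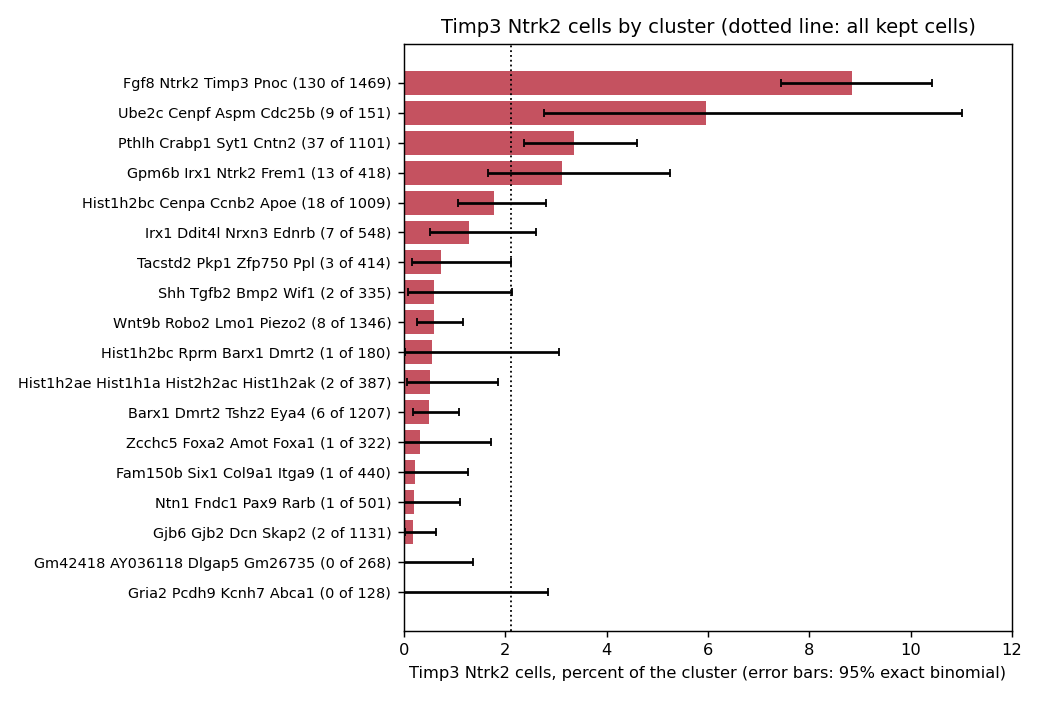
Percent of the cells of each of 18 E12.0 clusters that were Timp3 Ntrk2 cells, with exact 95% binomial intervals, clusters being labelled by 4 leading genes and by the number of Timp3 Ntrk2 cells among all their cells. The cluster led by Fgf8 stands at 8.85%, above the 2.12% of all kept cells (dotted line), and 2 clusters held none.

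The Timp3 Ntrk2 cells inside and outside the cluster led by Fgf8 were set side by side, a split by expression that by itself sets some genes apart. The 130 inside had a median of 6422.5 UMIs and the 111 elsewhere 7144 UMIs. Fgf8 was at 70.4 CPM (54.3 to 89.7) in the first and 43.7 CPM (31.1 to 59.7) in the second, with intervals that overlapped, as did those of Prss23, at 195 CPM (167 to 226) and 159 CPM (134 to 187), and of Ephb1, at 42.2 CPM (30.0 to 57.7) and 40.3 CPM (28.2 to 55.8). Genes lower in the first included Cxcl14, at 199 CPM (172 to 230.2) in the first and 386 CPM (347 to 429) in the second, Dsc3 at 67.1 CPM (51.5 to 86.1) and 134 CPM (111 to 161), and Barx1 at 6.50 CPM (2.38 to 14.1) and 38.1 CPM (26.4 to 53.2). Fgf9 was higher in the first, at 109 CPM (89.1 to 133) and 66.1 CPM (50.3 to 85.2). These examples were chosen after their values were seen. Of the 443 genes compared, all list members or leading genes named for their differences, 8 were higher and 24 lower in the first with intervals apart. The share over all genes was not counted, so these counts describe the named genes alone. In the 37 cells of the cluster led by Pthlh, Fgf8 was at 15.1 CPM (4.12 to 38.7), Isl1 at 185 CPM (137 to 245) and Tlx1 at 121 CPM (82.7 to 171). These are homeobox genes of the distal jaw, and in the 130 cells they were at 67.1 CPM (51.5 to 86.1) and 31.4 CPM (21 to 45.1).

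Within the cluster led by Fgf8, the candidate markers had overlapping intervals in the Timp3 Ntrk2 cells and the other 1339 cells. There Fgf8 was at 70.4 (54.3 to 89.7) CPM in the Timp3 Ntrk2 cells and 82.3 (76.6 to 88.4) CPM in the rest, Ephb1 at 42.2 (30.0 to 57.7) and 50.3 (45.9 to 55.1) CPM, and Prss23 at 195 (167 to 226) and 185 (176 to 194) CPM. Of the same 443 named genes, again without a share over all genes, 7 were higher and 12 lower in the Timp3 Ntrk2 cells with intervals apart. Among them were Slc12a2, at 838 CPM (780.2 to 899) against 667 CPM (651 to 684), and Wnt4, at 551 CPM (504 to 601) against 708 CPM (691 to 725). Across thinned Timp3 Ntrk2 cells, Isl1 and Tlx1 were found together 2.42 times (1.54 to 3.58) as often as independent detection gives, in 22 of 229 cells, and Cxcl14 and Tfap2b 1.57 times (1.18 to 2.03), in 46 cells. Isl1 and Tfap2b were found together 0.562 times as often (0.283 to 0.986), in 11 cells. For Fgf8 with Isl1 (0.750, 0.363 to 1.35) and Fgf8 with Prss23 (1.21, 0.810 to 1.71) the intervals included 1.

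The pooled embryos were of both sexes, so the cells of the 1 library were split by Xist and Y-linked UMIs, which gives no replicates. Of the Timp3 Ntrk2 cells, 96 had Xist and no Y-linked UMI, 108 had a Y-linked UMI, with or without Xist, and 37 had neither. Against all other cells of the same sex, 64 genes were higher and 103 lower in both sets, out of 493 and 384 higher and 492 and 405 lower in either, and 21 met the criteria in opposite directions. Against the Irx1-positive cells, 112 were higher and 117 lower in both, and 43 were opposite. Genes that met the criteria in both sexes against all other cells included Fgf8, Ephb1, Prss23, Pnoc, Tgfbr3, Bdnf, Ntf3 and Npnt as higher and Robo2, Gjb2, Cxcl14, Tfap2b, Barx1, Notch1 and Cdkn1c as lower. Against the Irx1-positive cells they included Ephb1, Prss23, Wnt7b, Krt15, Meis2 and Gas1 as higher and Fst, Enc1, Tbx1 and Dsc3 as lower. For genes that reached the share of 15% in 1 group alone, such as Fgf8, Ephb1, Pnoc, Tgfbr3, Bdnf, Robo2, Gjb2, Barx1, Notch1, Enc1 and Tbx1, the direction was fixed by the criteria, so the second sex adds no support there. Smaller sets of cells let more genes past a fixed fold by counting error alone, so the counts within a sex cannot be set beside those of all cells.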

How the data were processed

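Raw UMI counts per gene and cell were deposited by the authors as 1 filtered 10x Genomics matrix per stage. The submitters' processing notes name Cell Ranger 2.0.0 and the builds mm10 and GRCm38, while the matrix headers carry software versions 3.1.0 (E12.0) and 6.1.2 (E9.5). Of 11663 E12.0 barcodes (78911671 UMIs over 27998 genes), cells with 200 to 5500 genes and at most 10% mitochondrial UMIs were kept, which left 11355. UMIs were summed over the cells of a group and divided by the group's total, with exact Poisson intervals, and shares of cells have exact Clopper-Pearson intervals. Genes were tested for size where at least 15% of the cells of either group had a UMI. The text names, outside the lists, the 15 genes with the largest change each way on the CPM plus 5 scale against all other cells, the 10 each way against the Irx1-positive cells, and members of the gene lists, described by role. Clustering used Seurat 5.3.0 with sctransform 0.4.2, 30 principal components and resolution 0.9, with 252 listed features left out of the variable genes and cell cycle, sex and lincRNA scores regressed as in the study. Doublets were called with Scrublet in scanpy 1.11.5 (661 of the kept cells, 5.82%) and kept in the main values. The scripts were tested on simulated data. The cells, gene lists and size criteria were chosen with earlier results of these data known. Results for some listed genes are not reported here.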

Additional observations from a re-analysis of the deposited data

Results flagged for a closer look

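The E9.5 library, which no comparison used, also held cells that met the same conditions. There were 75 of 12744 kept cells (0.589%, exact 95% binomial interval 0.463 to 0.737%). The median depth of all kept E9.5 cells was 13460.5 UMIs, against 6349 at E12.0. Among the 4816 E9.5 cells with an Epcam UMI there were 24 (0.498%, 0.320 to 0.741%). In E9.5 Epcam-positive cells Timp3 was at 10.4 CPM, Ntrk2 at 5.04 CPM and Fgf8 at 88.7 CPM. Over all kept E12.0 cells, which were sorted epithelium and not chosen by Epcam, the levels were 104, 21.7 and 24.9 CPM. Stage, sorting and library cannot be told apart here.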

How the results depend on the processing

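The number of Timp3 Ntrk2 cells and the counts of genes depended on the conditions. Counts are given in the order higher and lower than all other cells, then higher and lower than the Irx1-positive cells (159, 208, 223 and 230 in the report). With at most 5% mitochondrial UMIs there were 49 cells and 827, 807, 971 and 892 genes. With at least 2 UMIs of both Timp3 and Ntrk2 there were 31 cells and 1220, 1236, 1181 and 1340 genes. The 96 Xist-positive cells gave 493, 492, 588 and 586 genes, and the 108 Y-positive cells 384, 405, 486 and 481. Fewer cells let more genes past a fixed fold by construction. Thinning gave 293 and 359 genes against all other cells (66 and 91 shared with the report), with 85 and 78 shared against the Irx1-positive cells, and an Irx sum of at most 1 gave 143 higher than the Irx1-positive cells. A 2-fold criterion left 2, 17, 10 and 20 genes, a share of 25% left 85, 100, 136 and 126, and no share criterion gave 434, 855, 649 and 846. The share of cells in 1 cluster (53.9%) was 19.5% without regression and 60.6% with the listed genes kept, and the cause was not tested.

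Of 2090 gene values under the alternatives, 1787 moved by less than their counting error, 282 moved by more and 21 changed sign. The settings differed widely. With 2 UMIs of Timp3 and of Ntrk2 required, 88 of 190 values moved by more and 14 changed sign. Thinning gave 59 and 3, and the limit of 5% mitochondrial UMIs 61 and 3. All 190 stayed within counting error with 1 CPM added, no upper gene limit or comparison cells weighted by depth. Against all other cells, with 2 UMIs required, Dlx1 was at -0.073, Pcyt1b 0.14, S100a6 -0.37 and Ntf3 -0.049 (log2, CPM plus 5), and thinned Slc4a4 at -0.032. Against the Irx1-positive cells, with 2 UMIs required, Tfap2b was at -2.66, Pcyt1b 0.24, Rxfp1 -0.51, Lmo1 -0.72, Dusp6 0.11, Kitl -0.22, Efnb2 -0.46, Pnoc -0.58, Cxcl14 -0.74 and Myc 0.27. At 5% mitochondrial UMIs Pcyt1b was at 0.058, Lmo1 -0.21 and Col12a1 -0.15, thinned Dusp6 at 0.16 and Boc at -0.16, and Myc at 0.16 in Xist-positive cells. The cause was not tested. No paired analysis was possible because there is 1 library per stage. With 76.3% of the cells on a single Ntrk2 UMI, depth limits which cells were found.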
